A study of Mus musculus with 12 samples.

Results

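Livers of calorie-restricted mice were compared with livers of freely fed mice at day 25 of the diet, to describe the early hepatic gene programme across pathways. The 6 samples were chosen by their labels, as the 3 control (Con) and the 3 calorie restriction (CR) libraries of day 25, from 12 samples in the series. The study asked how hepatic protein synthesis slows under CR and whether nitric oxide takes part, and it placed day 25 before and day 30 after the slowdown. Liver RNA was sequenced in 4 groups of 3 mice, which were Con and CR at each of these days. All mice were males that entered the study at an age of 6 weeks, with the genotype given as C57Bl/6J. Con mice ate NIH41 chow ad libitum. CR mice received 30% less of a fortified NIH41 chow, in 1 daily portion at midday that was adjusted each week by body weight, for 25 days. All were housed singly under a light-dark cycle and drank heavy water for the last days before the liver was taken.

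These groups limit what the comparison can tell. The CR mice differed from the Con mice in the amount of food, in the make of the chow and in the timing of the meal, and these parts of the diet cannot be told apart. The hour of tissue collection and the time since the last meal are not given in the sources used here, so a shift in daily timing and a change in level cannot be told apart either. Each value stands for 1 mouse at 1 moment, and each library was made from total RNA of liver. Values are FPKM, the reads on the exons of a gene scaled by the length of its exons and by the reads of the library. The libraries held 18408815, 18379835 and 16855419 reads in Con mice and 21198518, 15749631 and 20110752 reads in CR mice.

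A liver that receives less food normally turns from storing fuel to releasing it. Between meals it breaks down glycogen, makes glucose from amino acids and lactate, and oxidizes fatty acids, under glucagon, glucocorticoids and the FOXO factors that insulin otherwise silences. After a meal it refills glycogen and makes fat and cholesterol, under insulin and the SREBP factors. The hepatic clock, a loop in which CLOCK and BMAL1 drive their own repressors, is set by feeding times as much as by light. The liver of male rodents also carries a sex-specific programme, set by the pulses of growth hormone through STAT5.

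Genes were compared on the scale of log2(FPKM + 1) with limma, and a gene is said to have risen or fallen when its adjusted p was under 0.1 and its log2 fold change at least 1 in size. Of 10593 genes tested, 89 rose (0.840%) and 68 fell (0.642%), and for 154 of these 157 genes the values of the groups did not overlap. Over all genes tested, the 3 CR mice lay above the 3 Con mice for 1085 genes (10.2%) and below them for 1902 genes (18.0%). The median log2 fold change was -0.039, with 4542 genes above 0 and 6051 below. This median was 0.0018 with median-ratio scaling, -0.0044 with quantile normalization and -0.012 without Con mouse 2. An adjusted p under 0.1 from limma, without a minimum fold change, was reached by 593 genes that were higher (5.60%) and 989 that were lower (9.34%) in CR mice. This split depended on the scaling between libraries, since it was 855 against 854 genes with median-ratio scaling and 758 against 828 with quantile normalization. It also depended on single mice, with 319 higher genes without Con mouse 1, 371 without Con mouse 3, 372 without CR mouse 1 and 369 without CR mouse 3. The lower genes numbered 637 without Con mouse 2, 632 without CR mouse 1 and 524 without CR mouse 3. With the minimum fold change, a pseudocount of 0.1 gave 150 genes that fell, TPM gave 110, and voom on the recovered reads gave 134 that rose and 168 that fell. Gene lists are described below by the members that passed both thresholds, by the members whose groups did not overlap, and by their median, to be read beside these values for all genes. Lists may share genes, and a shared gene is counted in each of them. Where a list is given with 1 direction only, limma called no member in the other with all mice in the fit. Square brackets behind the median of a list, its count of members past both thresholds or its count at an adjusted p under 0.1 give its lowest and highest value with each mouse left out in turn, where this moved it by over 1.5 times or changed its sign. At an unadjusted p under 0.05, limma had 986 higher (9.31%) and 1649 lower genes (15.6%), to be read beside the counts of lists at that threshold.

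The label of the tissue was checked against marker genes of liver and other cell types. The summed FPKM of the 10 hepatocyte markers were 59513, 60929 and 66585 in Con mice and 67073, 72026 and 70482 in CR mice, with *Alb*, which encodes albumin, as the most abundant gene. The sums of the groups did not overlap, and all CR mice lay above all Con mice. Of the difference between the mean sums, 7518, *Alb* alone made up 5396. The 12 markers of Kupffer cells, the resident macrophages of liver, summed to 78.8, 131 and 78.2 in Con mice and 50.5, 61.1 and 55.9 in CR mice. All CR mice lay below all Con mice, and Con mouse 2 stood above the other Con mice. Of these 12 markers, 10 had all CR mice below all Con mice, and their median log2 fold change was -0.68, or -0.44 without Con mouse 2. The most abundant one, *Clec4f*, a lectin of these cells, had FPKM of 12.4, 21.4 and 12.9 in Con mice and 8.54, 9.59 and 9.19 in CR mice. The receptor that keeps macrophages alive, *Csf1r*, had FPKM of 5.63, 8.27 and 4.11 in Con mice and 2.46, 3.1 and 3.01 in CR mice. Its groups did not overlap either (log2 fold change -0.82, standard error 0.21, adjusted p = 0.0287 from limma). In bulk liver, fewer cells of a type and less RNA per cell cannot be told apart.

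Markers of the other cell types moved less or were sparse. The sums for endothelium (74.6, 100.1 and 66.99 in Con mice and 89.8, 91.1 and 103 in CR mice; 12 of 12 markers tested, *Clec4g* most abundant) overlapped between groups. Stellate cells and fibroblasts (10 of 12 tested, *Ecm1* most abundant) gave 114, 130.0 and 114 in Con mice and 139, 165 and 141 in CR mice, with the CR mice higher. Of the difference of 28.9 between the mean sums, *Ecm1* made up 15.6. Cholangiocyte markers (3 of 9 tested, *Spp1* most abundant) gave 25.5, 23.6 and 20.4 in Con mice and 21.3, 19.9 and 11.01 in CR mice, and the groups overlapped. Erythroid markers (5 of 7 tested, *Hbb-bs* most abundant) gave 296, 623 and 1107 in Con mice and 480.0, 529 and 638 in CR mice, and Con mouse 3 had the highest and Con mouse 1 the lowest sum. Lymphocyte markers, of which none of 11 was tested, reached 2.24, 1.69 and 2.53 in Con mice and 1.29, 1.35 and 0.894 in CR mice, with *Cd79b* most abundant. Neutrophil markers, of which none of 10 was tested, reached 0.678, 1.3 and 1.12 in Con mice and 0.29, 0.395 and 0.139 in CR mice, with *S100a9* most abundant and *Ly6g* and *Camp* at 0 in all 6 mice. For both, the CR mice lay below the Con mice, at levels that rest on few reads. Pancreas markers (7.33, 8.08 and 6.88 in Con mice and 7.87, 11.99 and 6.28 in CR mice; 2 of 10 tested, *Cela1* most abundant, *Amy2a2* and *Cpb1* at 0) overlapped between groups. Adipocyte markers (12.4, 8.71 and 11.8 in Con mice and 16.99, 15.99 and 20.6 in CR mice; 2 of 7 tested, *Fabp4* most abundant) were higher in CR mice, while the defining *Adipoq* and *Plin1* were at 0 in all 6 mice. The difference was that of *Plin4*, a lipid droplet gene given below (6.85 of 6.87 between the means). *Fabp4* had FPKM of 7.53, 6.68 and 7.75 in Con mice and 7.28, 7.7 and 8.93 in CR mice, and its groups overlapped.

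**Figure D1:**
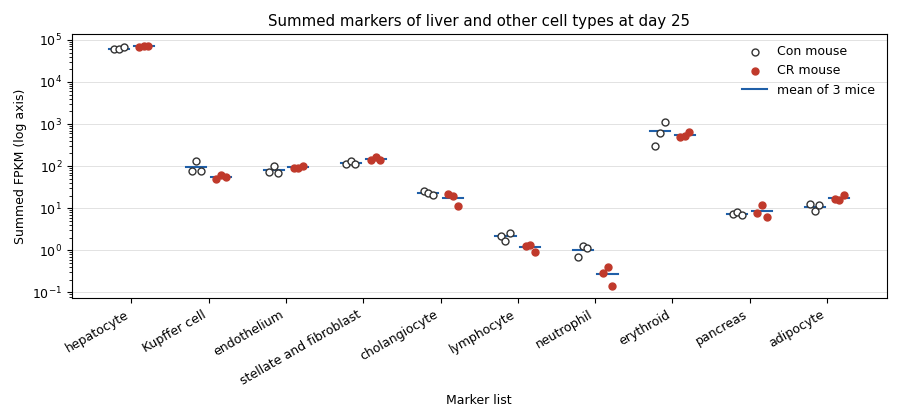
Summed FPKM of marker genes of each cell type (log axis) in the 3 Con mice (open circles) and the 3 CR mice (red) at day 25, with blue bars at the mean of 3 mice. Kupffer cell sums lie between 78.2 and 131 in Con mice and between 50.5 and 61.1 in CR mice.

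**Figure D2:**
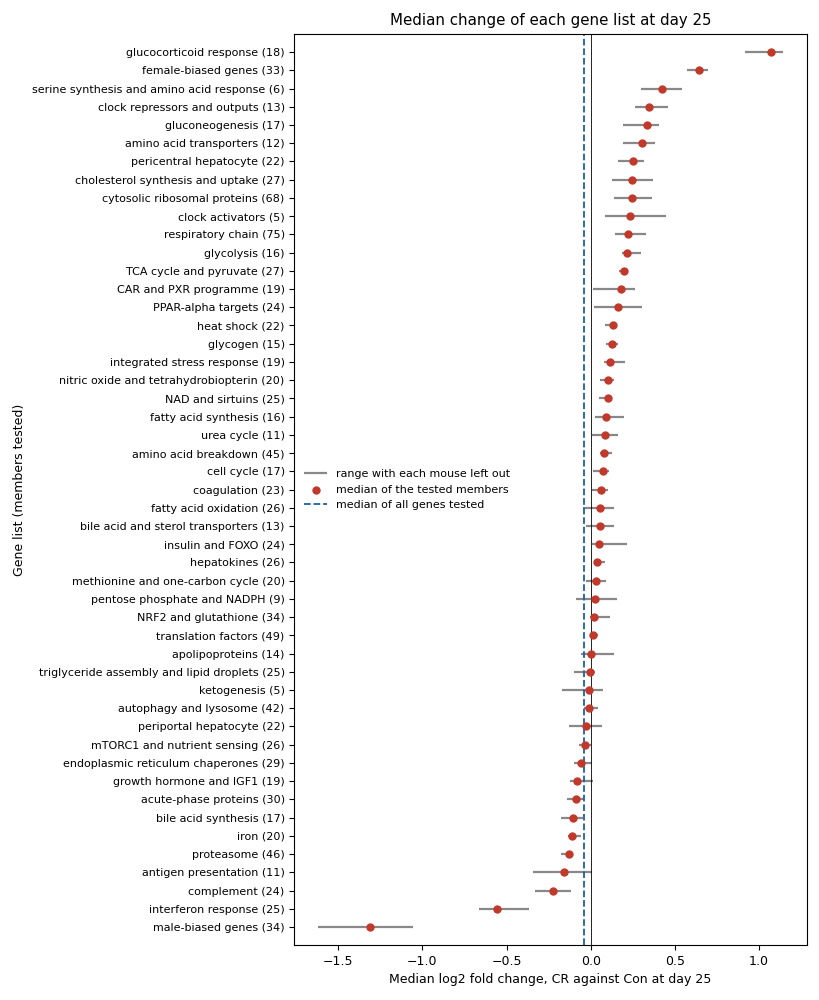
Median log2 fold change of CR against Con at day 25 for each gene list (red), with the number of members tested, the lowest to highest median when each mouse is left out in turn (grey) and the median of all genes tested (dashed, -0.039). The glucocorticoid response list lies highest at 1.07 and male-biased genes lowest at -1.31.

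The sex-biased programme moved in both directions. Of 34 tested genes that are known to be higher in male liver, 18 fell and 1 rose, all 3 CR mice lay below all Con mice for 21, and the median log2 fold change was -1.31. With each mouse left out in turn, 14 to 20 of them fell. Of 33 tested genes known to be higher in female liver, 12 rose, all CR mice lay above all Con mice for 21, and the median was 0.64. The number that rose was 8 without Con mouse 1 and 8 without Con mouse 2. Not all members of either list stand for a separate measurement, since the Mup, Cyp2, Cyp4a and Sult genes have near-identical copies between which reads may have been split.

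The major urinary proteins carry pheromones in male urine. *Mup20*, which encodes the male pheromone darcin, had FPKM of 3015, 2918 and 1546 in Con mice and 368, 532 and 224 in CR mice. The groups did not overlap, CR mouse 3 was lowest, and *Mup20* fell (log2 fold change -2.76, standard error 0.49, adjusted p = 0.00532 from limma). FPKM of *Mup7* were 1508, 2317 and 1243 in Con mice and 277, 536 and 157 in CR mice. Here too CR mouse 3 was lowest and CR mouse 2 highest among the CR mice, below every Con mouse (log2 fold change -2.51, standard error 0.38, adjusted p = 0.00248 from limma). For *Mup17*, values were 1518, 1268 and 587 in Con mice and 12.6, 63.9 and 18.7 in CR mice. These groups lay furthest apart of the 3 Mup genes given here (log2 fold change -5.33, standard error 0.52, adjusted p = 0.000281 from limma). As members of a cluster of near-identical genes, their single values are uncertain. *Elovl3*, which encodes an elongase of very long fatty acids and follows both male growth hormone pulses and the clock, had FPKM of 49.8, 51.5 and 39.2 in Con mice and 24.1, 20.5 and 6.66 in CR mice. Far below the other CR mice lay CR mouse 3, and the gene fell (log2 fold change -1.57, standard error 0.38, adjusted p = 0.0261 from limma), by a log2 fold change of -1.03 without that mouse.

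On the female-biased side, *Cyp2b9*, a steroid and drug hydroxylase that adult male liver hardly expresses, had FPKM of 0.116, 0.029 and 0.477 in Con mice and 51.4, 19.7 and 60.6 in CR mice. Con mice were near 0, and CR mouse 2 was the lowest CR mouse (log2 fold change 5.09, standard error 0.33, adjusted p = 9.17e-06 from limma). The FPKM of *Cyp2c40*, a fatty acid epoxygenase, were 1.49, 0.851 and 0.199 in Con mice and 7.17, 7.56 and 9.2 in CR mice. The CR mice were higher, within a narrow range (log2 fold change 2.34, standard error 0.31, adjusted p = 0.00135 from limma). *Cyp2c69*, a neighbour of *Cyp2c40* on chromosome 19, had FPKM of 1.42, 0.278 and 0.304 in Con mice and 3.49, 5.34 and 13.2 in CR mice. The groups did not overlap, and CR mouse 3 was highest (log2 fold change 2.22, standard error 0.44, adjusted p = 0.01 from limma). FPKM of *Cyp2a22* were 1.1, 0.491 and 2.76 in Con mice and 8.03, 5.99 and 9.52 in CR mice. Con mouse 3 was highest of the Con mice and still below each CR mouse (log2 fold change 1.94, standard error 0.37, adjusted p = 0.00765 from limma). All 4 belong to families with near-identical members, so the values of single genes are uncertain.

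**Figure D3:**
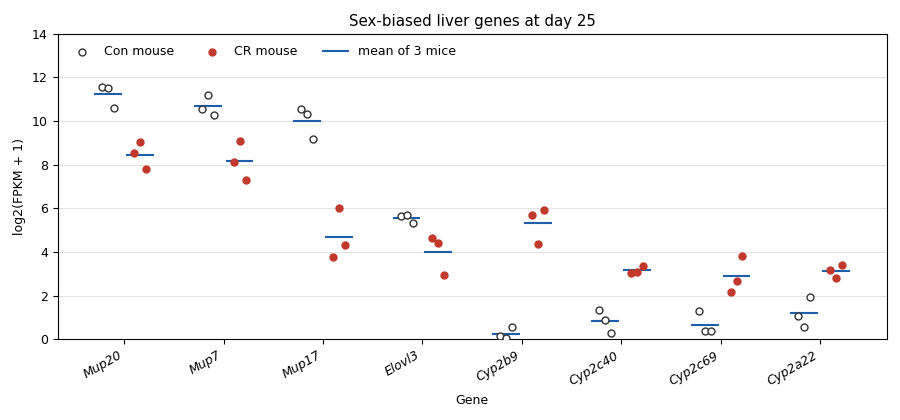
Levels as log2(FPKM + 1) of 4 male-biased genes (left) and 4 female-biased genes (right) in the 3 Con mice (open circles) and the 3 CR mice (red) at day 25, with blue bars at the mean. For each gene the groups do not overlap.

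The growth hormone axis itself was looked at through 19 tested genes, whose median log2 fold change was -0.082 [-0.12 to 0.012]. It was above 0 without CR mouse 3 only. The growth hormone receptor, *Ghr*, had FPKM of 134, 128 and 108 in Con mice and 142, 132 and 88.5 in CR mice. Its groups overlapped. For *Igf1*, the growth factor that liver releases under growth hormone, FPKM were 93.3, 61.8 and 71.2 in Con mice and 107, 78.7 and 83.1 in CR mice, and again the groups overlapped. FPKM of *Socs2*, a feedback inhibitor that STAT5 induces, were 8.53, 7.73 and 5.85 in Con mice and 3.28, 5.34 and 5.74 in CR mice. Each CR mouse was below each Con mouse by a small margin. *Igfbp1*, which encodes a secreted binding protein of IGF1 that insulin represses and fasting induces, had FPKM of 14.4, 40.04 and 42.1 in Con mice and 56.7, 67.6 and 175 in CR mice. CR mouse 3 was highest and Con mouse 1 lowest, and the groups did not overlap (log2 fold change 1.56, standard error 0.50, adjusted p = 0.0741 from limma). The rise fell short of the threshold without CR mouse 3 (log2 fold change 1.06, adjusted p = 0.247 from limma), without Con mouse 1 (1.08, adjusted p = 0.24) and without the filter on low FPKM (adjusted p = 0.156).

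Among the activators of the clock, *Arntl*, which encodes BMAL1, had FPKM of 2.57, 1.22 and 1.01 in Con mice and 0.909, 0.611 and 2.64 in CR mice, and the groups overlapped. Its partner *Clock* had FPKM of 6.65, 4.49 and 4.79 in Con mice and 3.15, 2.23 and 3.61 in CR mice. Every CR mouse was lower, by less than the minimum fold (log2 fold change -0.66, standard error 0.15, adjusted p = 0.0176 from limma). The 5 activators tested had a median of 0.23 [0.083 to 0.45].

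Of the 13 repressors and output factors of the clock, 3 rose and 1 fell, and the median was 0.35. *Nr1d1* encodes REV-ERBα, a nuclear receptor that represses *Arntl*. Its FPKM were 45.9, 50.9 and 39.8 in Con mice and 8.79, 6.96 and 8.23 in CR mice. The groups were wide apart with little spread, and *Nr1d1* fell (log2 fold change -2.37, standard error 0.14, adjusted p = 5.1e-06 from limma). *Thra*, the thyroid hormone receptor gene on the opposite strand, shares bases with the end of *Nr1d1* on chromosome 11, and the sources used here do not say whether reads were counted by strand. It was named after its values were seen, with FPKM of 9.78, 12.00 and 9.29 in Con mice and 3.75, 4.2 and 3.06 in CR mice. It fell as well (log2 fold change -1.28, adjusted p = 0.000622 from limma), and reads of these overlapping genes cannot be told apart. *Cry1* encodes a repressor of CLOCK and BMAL1 that follows the other repressors in the daily cycle. FPKM were 2.12, 2.52 and 1.58 in Con mice and 7.44, 5.78 and 9.63 in CR mice. Every CR mouse was above every Con mouse (log2 fold change 1.47, standard error 0.16, adjusted p = 0.000386 from limma). *Per2*, which encodes a partner of cryptochromes that also responds directly to glucocorticoids, had FPKM of 2.89, 3.35 and 5.23 in Con mice and 10.9, 10.5 and 11.9 in CR mice. CR mice were nearly alike and all higher (log2 fold change 1.35, standard error 0.15, adjusted p = 0.000386 from limma). *Ciart*, another repressor of CLOCK and BMAL1, had FPKM of 4.46, 10.6 and 13.3 in Con mice and 23.4, 25.6 and 17.4 in CR mice. The groups did not overlap, and Con mouse 1 was lowest (log2 fold change 1.24, standard error 0.40, adjusted p = 0.0715 from limma). Its rise passed by a small margin, since the adjusted p from limma was 0.159 without CR mouse 1, 0.159 without CR mouse 2, 0.105 without CR mouse 3, 0.233 without Con mouse 1 and 0.151 without the filter on low FPKM. *Dbp*, an output factor that CLOCK and BMAL1 drive, had FPKM of 26.3, 55.6 and 51.9 in Con mice and 45.4, 62.4 and 28.02 in CR mice, and these groups overlapped widely. *Per1* (7.17, 12.01 and 13.05 in Con mice, 14.2, 14.98 and 16.6 in CR mice) lay higher in each CR mouse.

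CLOCK and BMAL1 bind the E-box CACGTG, which reads the same on both strands. In the 250 bases before the start of each gene in the RefSeq promoter table (GRCm38.p6), an exact E-box was found in 6.02% of 32851 promoters. Of the 13 repressor and output genes 11 were in that table, with 13 promoters, of which 6 held an E-box, those of *Bhlhe41*, *Ciart*, *Cry1*, *Per1* and *Tef*. *Nr1d1* was not among the genes with a match, and which 11 genes were in the promoter table is not given here. The promoters of *Ciart* and *Cry1*, both higher in CR mice, are shown because they hold the element through which the clock acts on its own repressors. They lie on the minus strand at chr3:95882229-95882478 and chr10:85185055-85185304, with E-boxes in capitals, 3 for *Ciart* and 1 for *Cry1*. A match is a description of the letters and no evidence that the site was bound.
Ciart: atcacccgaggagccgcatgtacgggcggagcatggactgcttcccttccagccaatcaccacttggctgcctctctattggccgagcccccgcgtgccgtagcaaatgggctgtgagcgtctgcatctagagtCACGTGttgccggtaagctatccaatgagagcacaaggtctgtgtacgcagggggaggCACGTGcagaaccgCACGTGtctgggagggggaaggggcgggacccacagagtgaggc
Cry1: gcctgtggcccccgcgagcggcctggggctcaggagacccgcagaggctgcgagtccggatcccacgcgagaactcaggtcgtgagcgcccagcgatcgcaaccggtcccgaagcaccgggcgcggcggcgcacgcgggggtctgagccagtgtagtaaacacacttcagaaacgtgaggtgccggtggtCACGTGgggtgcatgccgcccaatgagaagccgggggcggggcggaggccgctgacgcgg

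Genes of the glucocorticoid response, a list that also holds the receptor gene *Nr3c1* and *Hsd11b1*, had the highest median of the lists, at 1.07. Of 18 tested, 8 rose, and all CR mice lay above all Con mice for 12. *Fkbp5*, a chaperone that dampens the receptor and is a common reporter of its activity, had FPKM of 17.8, 38.6 and 38.9 in Con mice and 74.8, 82.9 and 97.99 in CR mice. Con mouse 1 was lowest, and all CR mice were above (log2 fold change 1.47, standard error 0.28, adjusted p = 0.00809 from limma). *Zbtb16*, a transcription factor that the receptor induces, had FPKM of 6.29, 10.1 and 6.02 in Con mice and 24.2, 16.9 and 22.5 in CR mice. The groups did not overlap (log2 fold change 1.40, standard error 0.32, adjusted p = 0.0184 from limma). *Dusp1*, a phosphatase that switches off MAP kinases, had FPKM of 13.5, 10.8 and 6.13 in Con mice and 24.1, 23.7 and 32.3 in CR mice. Con mouse 3 was lowest and CR mouse 3 highest (log2 fold change 1.36, standard error 0.31, adjusted p = 0.018 from limma). *Ddit4* encodes REDD1, which restrains mTORC1 when energy, oxygen or amino acids are short. FPKM were 2.62, 4.37 and 6.11 in Con mice and 12.7, 19.8 and 49.4 in CR mice. CR mouse 3 stood high, and each CR mouse exceeded each Con mouse (log2 fold change 2.23, standard error 0.39, adjusted p = 0.00517 from limma). *Cdkn1a*, which encodes the cell cycle inhibitor p21, had FPKM of 2.25, 1.25 and 3.36 in Con mice and 7.52, 5.79 and 18.1 in CR mice. Here too CR mouse 3 was highest (log2 fold change 1.70, standard error 0.35, adjusted p = 0.0113 from limma). Of 17 cell cycle genes with enough FPKM to be tested, out of 34, *Cdkn1a* was the one that rose, and the median was 0.071 [0.012 to 0.11]. *Tat*, tyrosine aminotransferase, the classical hepatic target of the hormone, had FPKM of 448, 716 and 749.6 in Con mice and 1498, 1379.6 and 1904 in CR mice. The lowest CR mouse was far above the highest Con mouse (log2 fold change 1.34, standard error 0.29, adjusted p = 0.0149 from limma).

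**Figure D4:**
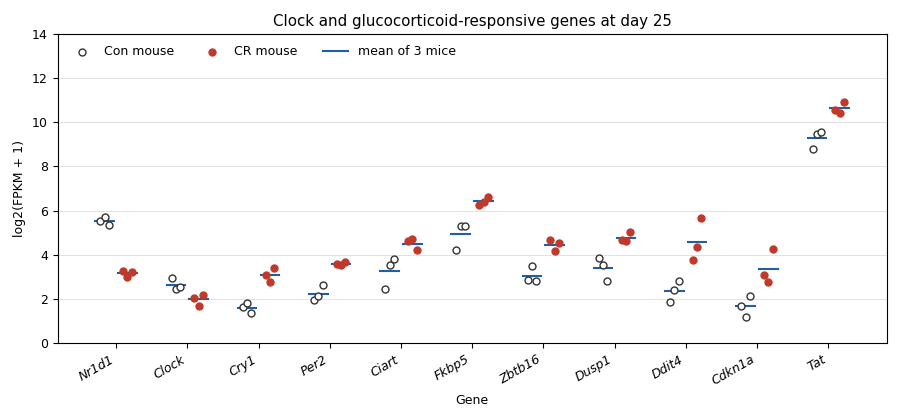
Levels as log2(FPKM + 1) of 5 clock genes (left) and 6 glucocorticoid-responsive genes (right) in the 3 Con mice (open circles) and the 3 CR mice (red) at day 25, with blue bars at the mean. Nr1d1 and Clock lie lower and the other 9 genes higher in every CR mouse.

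In glucose metabolism, the median was 0.33 [0.19 to 0.41] for 17 gluconeogenic genes and 0.22 for 16 glycolytic genes, with all CR mice above all Con mice for 5 and 6 of them. Of the gluconeogenic genes 1 rose [0 to 2], which was *Got1*, given below, while 0 [0 to 1] of the glycolytic genes did. At an adjusted p under 0.1 from limma, 5 [2 to 5] gluconeogenic genes were higher and 0 lower. *Pck1*, the enzyme that commits carbon to glucose, had FPKM of 1436, 2366 and 2167 in Con mice and 2245, 2462 and 2314 in CR mice. Con mouse 1 was lowest and the groups overlapped. For *G6pc*, which releases free glucose, FPKM were 119, 86.7 and 84.4 in Con mice and 156, 104 and 255 in CR mice, and the groups overlapped, with CR mouse 3 highest. *Pfkfb1*, the bifunctional enzyme that sets the balance of glycolysis and gluconeogenesis, had FPKM of 13.1, 13.5 and 17.8 in Con mice and 21.4, 24.9 and 19.7 in CR mice. Each CR mouse exceeded the highest Con mouse, by less than the minimum fold on average (log2 fold change 0.55, standard error 0.13, adjusted p = 0.0246 from limma). *Foxo1*, the factor that drives gluconeogenic genes when insulin is low, had FPKM of 10.5, 12.99 and 13.96 in Con mice and 24.96, 17.7 and 23.1 in CR mice. Its groups did not overlap (log2 fold change 0.76, standard error 0.14, adjusted p = 0.00639 from limma). Of 24 genes of insulin signalling and FOXO factors 1 rose [0 to 1], which was *Igfbp1*, and the median was 0.047 [0.0082 to 0.21]. The FOXO motif GTAAACA was found in 1 of their 28 promoters, against 3.17% of all promoters.

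Glycogen was followed through its enzymes and their regulators. Of 15 tested glycogen genes 2 rose [1 to 3], and the median was 0.12. *Gys2*, liver glycogen synthase, had FPKM of 50.00, 63.5 and 71.9 in Con mice and 124, 131 and 102 in CR mice. With CR mouse 3 as the lowest, the CR mice were still higher than each Con mouse (log2 fold change 0.94, standard error 0.14, adjusted p = 0.00273 from limma). *Ppp1r3b* encodes the liver subunit that brings protein phosphatase 1 to glycogen and so activates the synthase. FPKM were 48.6, 31.96 and 31.1 in Con mice and 109, 61.9 and 75.2 in CR mice. Every CR mouse exceeded every Con mouse, with CR mouse 1 highest (log2 fold change 1.11, standard error 0.21, adjusted p = 0.00809 from limma). The fold change was 0.89 without CR mouse 1 and 0.998 without Con mouse 3, both short of the minimum. *Ppp1r3g*, a related subunit that fasting induces, had FPKM of 0, 0.52 and 0.129 in Con mice and 5.47, 1.43 and 9.28 in CR mice. Con mice were near 0 and CR mice spread widely (log2 fold change 2.19, standard error 0.57, adjusted p = 0.0333 from limma). It did not pass without CR mouse 3 (log2 fold change 1.73, adjusted p = 0.122 from limma) or with voom on the recovered reads (log2 fold change 5.53, adjusted p = 0.114 from limma).

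Lists of fat metabolism had medians between -0.0071 and 0.16, with members moving in both directions. *Lpin1*, which makes diacylglycerol for triglycerides and also works with PGC-1α as a coactivator, had FPKM of 16.2, 48.4 and 55.9 in Con mice and 177, 239.9 and 193 in CR mice. Con mouse 1 was lowest, and the groups lay far apart (log2 fold change 2.47, adjusted p = 0.00294 from limma). *Thrsp* (Spot 14), a protein that follows carbohydrate feeding and thyroid hormone and promotes fat synthesis, had FPKM of 30.97, 40.9 and 40.96 in Con mice and 193, 242 and 138 in CR mice. Con mice were alike, and the CR mice stood well above them (log2 fold change 2.29, standard error 0.25, adjusted p = 0.000386 from limma). *Acacb*, which makes the malonyl-CoA that restrains entry of fatty acids into mitochondria, had FPKM of 3.23, 5.7 and 5.31 in Con mice and 8.46, 9.85 and 12.2 in CR mice. Its CR mice were all higher, just under the minimum fold (log2 fold change 0.97, standard error 0.23, adjusted p = 0.0199 from limma). In contrast, FPKM of fatty acid synthase, *Fasn*, were 21.7, 19.8 and 19.2 in Con mice and 16.1, 19.3 and 17.7 in CR mice, and the groups overlapped. *Srebf1*, the insulin-induced factor above these enzymes, had FPKM of 18.3, 20.9 and 13.8 in Con mice and 26.2, 26.7 and 8.52 in CR mice, with overlapping groups and CR mouse 3 lowest of the 6. Over 16 genes of fatty acid synthesis, 1 rose [1 to 2] and 1 fell [0 to 1], and the median was 0.093 [0.026 to 0.20].

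*Fads2*, the delta-6 desaturase of polyunsaturated fatty acids, had FPKM of 135, 149.8 and 194 in Con mice and 332, 309 and 219 in CR mice. CR mouse 3 came nearest to the Con mice, from above (log2 fold change 0.83, standard error 0.20, adjusted p = 0.0212 from limma). *Elovl5*, the elongase that acts on its products, had FPKM of 71.4, 58.7 and 117 in Con mice and 47.4, 36.02 and 34.6 in CR mice. The CR mice were lower, and Con mouse 3 stood above the other Con mice (log2 fold change -1.001, standard error 0.21, adjusted p = 0.0122 from limma). The fall was at the minimum fold, with a log2 fold change of -0.72 without Con mouse 3, -0.95 without CR mouse 2, -0.92 without CR mouse 3 and -0.95 with median-ratio scaling.

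*Plin5*, which ties lipid droplets to mitochondria, had FPKM of 20.5, 23.7 and 25.2 in Con mice and 48.99, 51.4 and 74.6 in CR mice. *Plin4*, which coats small droplets, had FPKM of 3.74, 1.94 and 3.35 in Con mice and 9.71, 8.29 and 11.6 in CR mice. In both, all CR mice were above all Con mice (*Plin5* log2 fold change 1.28, standard error 0.21, adjusted p = 0.00358 from limma; *Plin4* log2 fold change 1.46, standard error 0.24, adjusted p = 0.0041 from limma). *Plin2*, the main coat of droplets in hepatocytes, had FPKM of 147, 148 and 169.8 in Con mice and 89.1, 92.9 and 99.2 in CR mice. Little spread within groups left a gap between them, under the minimum fold (log2 fold change -0.72, standard error 0.13, adjusted p = 0.00714 from limma). The 25 genes of triglyceride assembly and lipid droplets, of which 3 rose, had a median of -0.0041 [-0.10 to 0.028] that changed sign with median-ratio scaling. *Mfsd2a*, a transporter of lysophospholipids that fasting and glucocorticoids induce in liver, had FPKM of 28.5, 33.02 and 64.1 in Con mice and 112, 117 and 145 in CR mice. Con mouse 3 was highest of its group and below each CR mouse (log2 fold change 1.63, standard error 0.34, adjusted p = 0.0123 from limma).

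Fatty acid oxidation had a median of 0.058 [-0.045 to 0.14] over 26 genes, which also changed sign with quantile normalization. *Cpt1a*, which carries fatty acids to mitochondria, had FPKM of 135, 160.0 and 214 in Con mice and 185, 192 and 164 in CR mice, and the groups overlapped. *Crot*, the peroxisomal octanoyltransferase that hands shortened fatty acids to mitochondria, was named after its values were seen. FPKM were 209, 204 and 205 in Con mice and 74.4, 80.2 and 57.5 in CR mice. The Con mice were nearly alike and the CR mice far below (log2 fold change -1.54, standard error 0.14, adjusted p = 0.000281 from limma). *Slc16a1*, a carrier of lactate and ketone bodies, had FPKM of 10.9, 10.9 and 8.2 in Con mice and 6.59, 5.21 and 7.03 in CR mice. The lowest Con mouse, Con mouse 3, was above each CR mouse (log2 fold change -0.59, standard error 0.13, adjusted p = 0.0161 from limma). The 5 ketogenic genes had a median of -0.0071 [-0.17 to 0.072], which changed sign with median-ratio scaling, and 24 targets of PPARα, the fasting receptor for fatty acids, had one of 0.16 [0.018 to 0.30], lowest without Con mouse 1. Of these targets 1 rose [0 to 1], which it did not without CR mouse 1, CR mouse 3, Con mouse 1 or Con mouse 2.

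Of 27 genes of cholesterol synthesis and uptake, 1 rose [1 to 3] and 1 fell [0 to 1], and the median was 0.25 [0.13 to 0.37]. *Fdps*, which makes farnesyl diphosphate, had FPKM of 41.8, 30.4 and 18.7 in Con mice and 79.3, 90.6 and 55.3 in CR mice. Both groups spread widely, with each CR mouse above each Con mouse (log2 fold change 1.32, standard error 0.29, adjusted p = 0.0148 from limma). *Insig2* encodes a membrane protein that holds SREBP in the endoplasmic reticulum. FPKM were 93.9, 91.3 and 91.1 in Con mice and 36.2, 26.4 and 62.8 in CR mice. The Con mice were nearly alike, and all CR mice were lower, with CR mouse 3 nearest (log2 fold change -1.21, standard error 0.24, adjusted p = 0.00891 from limma). Its log2 fold change was -0.93 without CR mouse 2, short of the minimum. The half-transporters *Abcg5* and *Abcg8*, which together pump sterols into bile and share a promoter region, moved together. *Abcg5* had FPKM of 38.3, 47.2 and 41.1 in Con mice and 60.1, 61.5 and 55.7 in CR mice. *Abcg8* had FPKM of 36.4, 41.7 and 38.8 in Con mice and 52.8, 54.3 and 51.7 in CR mice. In both, all CR mice were higher by less than the minimum fold (*Abcg5* log2 fold change 0.48, adjusted p = 0.0139 from limma; *Abcg8* log2 fold change 0.43, adjusted p = 0.0153 from limma).

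Bile acid synthesis (2 rose [1 each time] and 1 fell [0 to 1] of 17, median -0.10 [-0.18 to -0.047]) held opposite changes. *Cyp7a1*, its controlled first step, had FPKM of 59.4, 65.9 and 84.1 in Con mice and 51.5, 65.2 and 24.03 in CR mice, and the groups overlapped, with CR mouse 3 lowest. *Hsd3b7*, the next enzyme, had FPKM of 188, 182 and 150.2 in Con mice and 79.7, 97.3 and 73.1 in CR mice. No CR mouse reached the lowest Con mouse (log2 fold change -1.05, standard error 0.16, adjusted p = 0.0031 from limma). It came short of the minimum fold without CR mouse 3 (-0.96 on the log2 scale) or Con mouse 1 (-0.99). *Nr0b2* encodes SHP, the repressor through which bile acids restrain *Cyp7a1*. FPKM were 15.6, 14.4 and 9.98 in Con mice and 31.1, 29.4 and 22.8 in CR mice. Each CR mouse exceeded each Con mouse (log2 fold change 1.02, standard error 0.22, adjusted p = 0.0148 from limma). The rise was near the minimum fold, with 0.93 without CR mouse 1, 0.97 without CR mouse 2 and 0.84 without Con mouse 3 on the log2 scale.

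Enzymes of amino acid breakdown, of which 2 of 45 rose [1 to 3], had a median of 0.077 [0.054 to 0.13]. All CR mice lay above all Con mice for 12 and below them for 6. Beside *Tat*, the other that rose was *Got1*, the cytosolic aspartate aminotransferase, with FPKM of 148, 169 and 205 in Con mice and 358, 321 and 551 in CR mice. CR mouse 3 was highest, and the groups did not overlap (log2 fold change 1.20, adjusted p = 0.0202 from limma). Without CR mouse 3 its log2 fold change was 0.97. *Hal*, the first step of histidine breakdown, had FPKM of 169, 234 and 209 in Con mice and 93.6, 99.97 and 125 in CR mice. Con mouse 1 and CR mouse 3 came closest, without overlap (log2 fold change -0.93, standard error 0.20, adjusted p = 0.0121 from limma). *Amt*, part of the glycine cleavage system, had FPKM of 23.2, 28.04 and 26.1 in Con mice and 13.9, 15.1 and 11.8 in CR mice. Each CR mouse was below each Con mouse (log2 fold change -0.88, standard error 0.13, adjusted p = 0.002 from limma). *Cbs*, which turns homocysteine towards cysteine, had FPKM of 137, 141 and 146 in Con mice and 72.6, 85.2 and 80.7 in CR mice. Con mice were nearly alike and CR mice lower (log2 fold change -0.83, standard error 0.11, adjusted p = 0.00148 from limma). The urea cycle (11 genes tested) and the methionine and one-carbon cycle (20) had medians of 0.087 [0.0092 to 0.16] and 0.034 [-0.028 to 0.093].

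Carriers that bring amino acids into hepatocytes had a median of 0.31 [0.19 to 0.38] over 12 genes, with all CR mice above all Con mice for 5. None passed both thresholds in limma, while 6 were higher and 1 lower at an unadjusted p under 0.05 and voom on the recovered reads called 1 higher. *Slc38a2* encodes SNAT2, a carrier of neutral amino acids that cells induce when these are short. FPKM were 31.4, 35.5 and 34.8 in Con mice and 58.8, 58.1 and 44.7 in CR mice. CR mouse 3 was lowest of the CR mice and above the Con mice (log2 fold change 0.64, standard error 0.14, adjusted p = 0.0159 from limma). *Slc43a1*, a carrier of large neutral amino acids, had FPKM of 2.72, 2.9 and 2.65 in Con mice and 6.67, 5.96 and 4.64 in CR mice. Its groups did not overlap (log2 fold change 0.84, standard error 0.16, adjusted p = 0.00766 from limma). *Slc6a6*, which imports taurine, had FPKM of 21.4, 24.7 and 20.3 in Con mice and 13.97, 14.8 and 11.8 in CR mice, and here the CR mice were lower (log2 fold change -0.68, standard error 0.15, adjusted p = 0.0164 from limma). FPKM of the more abundant *Slc38a4* were 348, 312 and 358 in Con mice and 387, 314 and 336 in CR mice. Those of *Slc7a2* were 139, 187 and 192 in Con mice and 258, 189 and 192 in CR mice. For both carriers the groups overlapped.

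The nuclear receptors CAR and PXR set the capacity for drug metabolism, and *Nr1i2*, which encodes PXR, had FPKM of 25.4, 34.3 and 35.5 in Con mice and 55.1, 58.03 and 47.8 in CR mice. The groups did not overlap, with CR mice higher by less than the minimum fold (log2 fold change 0.75, standard error 0.14, adjusted p = 0.00684 from limma). Of 19 tested genes of this programme 2 rose [1 to 3], and the median was 0.18 [0.011 to 0.26], with 0.011 without Con mouse 1 and 0.078 without CR mouse 2. Of the 19, 8 were below 0, and at an adjusted p under 0.1 from limma 5 were higher and 0 [0 to 2] lower. *Cyp3a11*, a target of PXR, had FPKM of 3633, 3471 and 2916 in Con mice and 2011, 2212 and 3221 in CR mice, and its groups overlapped, with CR mice 1 and 2 below all Con mice. *Nr1i3*, which encodes CAR, had FPKM of 121, 178 and 175 in Con mice and 164, 203 and 165 in CR mice. Those of *Cyp2b10* were 7.39, 20.5 and 18.4 in Con mice and 18.6, 24.9 and 62.6 in CR mice. Both overlapped between groups, and CR mouse 3 was highest for *Cyp2b10*. *Por*, the reductase that feeds electrons to all microsomal cytochromes P450, had FPKM of 179, 326 and 345 in Con mice and 565, 585 and 658 in CR mice. Con mouse 1 was lowest, and all CR mice were above (log2 fold change 1.14, standard error 0.21, adjusted p = 0.00608 from limma). Without Con mouse 1 the log2 fold change was 0.84, short of the minimum. *Cyp2a5*, which oxidizes coumarin and nicotine, had FPKM of 271, 369 and 371 in Con mice and 761, 907 and 841 in CR mice. The CR mice were all far above (log2 fold change 1.32, standard error 0.22, adjusted p = 0.00368 from limma), with the caution that it has near-identical copies. *Abcb1a*, a drug efflux pump, had FPKM of 0.461, 0.539 and 0.648 in Con mice and 2.15, 1.6 and 2.16 in CR mice. Levels were low in all mice and higher in each CR mouse (log2 fold change 0.93, standard error 0.18, adjusted p = 0.00946 from limma).

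Genes of the NRF2 response and of glutathione had a median of 0.021 [-0.0015 to 0.11] over 34, of which 2 rose [1 to 2], and single members went both ways. *Ces1g*, a carboxylesterase with near-identical copies, had FPKM of 63.1, 68.99 and 61.8 in Con mice and 151, 145 and 116 in CR mice. The Con mice were alike and lower than each CR mouse (log2 fold change 1.07, standard error 0.20, adjusted p = 0.00733 from limma). The log2 fold change was 0.99 without CR mouse 1 and 0.97 with quantile normalization. *Gstm4*, a glutathione transferase of a family with near-identical copies, had FPKM of 34.1, 37.5 and 32.9 in Con mice and 14.96, 22.5 and 15.4 in CR mice. Each CR mouse was lower (log2 fold change -0.96, standard error 0.20, adjusted p = 0.013 from limma). *Srxn1*, which restores oxidized peroxiredoxins, had FPKM of 14.6, 17.1 and 15.97 in Con mice and 7.19, 10.1 and 7.79 in CR mice. It was lower in each CR mouse too (log2 fold change -0.86, standard error 0.14, adjusted p = 0.00369 from limma).

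In the interferon response, all CR mice lay below all Con mice for 13 of 25 tested members, 1 fell [0 to 3], and the median was -0.56 [-0.66 to -0.37]. The smallest values, a median of -0.37 and no member that fell in limma, were those without CR mouse 3, while voom called 5 lower. *Oasl1*, an inhibitor of translation of IRF7, had FPKM of 3.88, 4.96 and 4.54 in Con mice and 1.76, 1.92 and 0.705 in CR mice. The groups did not overlap, with CR mouse 3 lowest (log2 fold change -1.18, standard error 0.21, adjusted p = 0.00486 from limma). Its log2 fold change was -0.94 without CR mouse 3, short of the minimum. *Rsad2* encodes viperin, an antiviral enzyme. FPKM were 2.5, 3.46 and 2.4 in Con mice and 1.16, 1.04 and 0.579 in CR mice. Again CR mouse 3 was lowest and the groups were apart, just under the minimum fold (log2 fold change -0.98, standard error 0.19, adjusted p = 0.00891 from limma). *Iigp1*, a guanosine triphosphatase that interferon gamma induces against intracellular parasites, had FPKM of 83.8, 77.5 and 67.3 in Con mice and 46.9, 43.2 and 31.3 in CR mice. Its groups did not overlap (log2 fold change -0.91, standard error 0.20, adjusted p = 0.0142 from limma). Antigen presentation genes had a median of -0.16 [-0.34 to 0.01] over 11. Hepatocytes and macrophages both express many of these genes, and the summed Kupffer cell markers were lower in the same mice. Their part in the lower values was not tested.

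Of 24 complement genes, most of which hepatocytes secrete, 2 fell [1 to 2] and the median was -0.22 [-0.33 to -0.12]. *C9*, the pore-forming protein of the membrane attack complex, had FPKM of 169, 221 and 145 in Con mice and 80.3, 88.7 and 43.2 in CR mice. Each CR mouse was below each Con mouse, and CR mouse 3 was lowest (log2 fold change -1.37, standard error 0.25, adjusted p = 0.007 from limma). Among 30 acute-phase genes, 1 rose [1 to 2] and 1 fell [1 to 2], and the median was -0.088 [-0.14 to -0.039]. *Saa1*, serum amyloid A, which has near-identical copies, had FPKM of 18.9, 34.4 and 89.1 in Con mice and 10.9, 13.1 and 7.12 in CR mice. Con mouse 3 was far above the other Con mice, which were still above each CR mouse (log2 fold change -1.85, standard error 0.41, adjusted p = 0.016 from limma). *Orm2*, an alpha-1-acid glycoprotein with near-identical copies, went the other way, with FPKM of 3.33, 3.91 and 7.43 in Con mice and 15.7, 13.01 and 28.7 in CR mice. Con mouse 3 and CR mouse 3 were highest in their groups, which did not overlap (log2 fold change 1.76, standard error 0.28, adjusted p = 0.0031 from limma). *Il6ra*, the receptor through which interleukin 6 induces acute-phase genes, had FPKM of 16.8, 21.99 and 25.97 in Con mice and 43.6, 37.2 and 41.1 in CR mice. The groups were apart, with the CR mice higher (log2 fold change 0.90, standard error 0.16, adjusted p = 0.00481 from limma). Coagulation factors had a median of 0.061 [0.0097 to 0.10] over 23 genes.

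Lists of short and abundant messages need care, because the median of all genes also varied with exon length and level. It was 0.054 for 1156 genes with under 1000 bases of exon and -0.074 for genes with 4000 or more, and it was 0.099 for genes with a mean log2(FPKM + 1) of at least 6. The 68 tested cytosolic ribosomal protein genes, with a median exon length of 713 bases, had a median of 0.25 [0.14 to 0.36], and 61 were above 0. Of 75 respiratory chain genes (median length 685 bases), 73 were above 0, with a median of 0.22 [0.14 to 0.33]. All CR mice lay above all Con mice for 6 and 9 members. Neither list had a member past both thresholds in limma or with voom. At an unadjusted p under 0.05, ribosomal genes were higher in 4 cases and lower in none, and respiratory genes higher in 8 and lower in 1. The part of length and level in these medians was not tested. *Rpl22l1*, a paralogue of a ribosomal protein, had FPKM of 13.03, 15.2 and 8.82 in Con mice and 22.6, 29.9 and 20.5 in CR mice. Con mouse 3 was lowest, and the groups were apart (log2 fold change 0.94, standard error 0.19, adjusted p = 0.0113 from limma). *Atp5s*, a coupling factor of ATP synthase, had FPKM of 4.34, 4.34 and 4.54 in Con mice and 3.51, 3.01 and 2.46 in CR mice, and was lower in each CR mouse (log2 fold change -0.45, standard error 0.10, adjusted p = 0.0167 from limma). In the TCA cycle and pyruvate list, the median was 0.20, and all CR mice lay above all Con mice for 11 of 27 genes.

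Proteasome genes were lower in most cases, though by little. Of 46 tested, 36 were below 0, the median was -0.13, and all CR mice lay below all Con mice for 17. None passed both thresholds in limma or with voom, and 14 were lower and 1 higher at an unadjusted p under 0.05. *Psmd14*, the subunit that removes ubiquitin from substrates, had FPKM of 25.3, 24.9 and 24.6 in Con mice and 16.04, 18.6 and 16.2 in CR mice. *Psmd11*, a subunit of the lid whose level sets proteasome assembly, had FPKM of 36.2, 37.1 and 37.8 in Con mice and 25.7, 26.8 and 25.5 in CR mice. Both were lower in each CR mouse, with little spread (*Psmd14* log2 fold change -0.53, standard error 0.09, adjusted p = 0.00562 from limma; *Psmd11* log2 fold change -0.49, standard error 0.09, adjusted p = 0.00532 from limma).

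Factors of translation had a median of 0.012 [0.0026 to 0.043] over 49 genes, which changed sign with TPM, and at an adjusted p under 0.1 from limma 1 [0 to 1] was higher and 2 were lower. *Eif4g3*, a scaffold that brings ribosomes to capped messages, had FPKM of 10.6, 10.5 and 10.7 in Con mice and 6.4, 6.51 and 6.67 in CR mice. *Pdcd4*, which blocks the helicase eIF4A, had FPKM of 47.6, 43.3 and 40.7 in Con mice and 33.7, 28.3 and 30.9 in CR mice. For both, CR mice were all lower (*Eif4g3* log2 fold change -0.63, standard error 0.11, adjusted p = 0.00459 from limma; *Pdcd4* log2 fold change -0.49, standard error 0.11, adjusted p = 0.0164 from limma). *Eif4a2*, a form of that helicase, had FPKM of 54.2, 53.6 and 44.7 in Con mice and 72.3, 62.96 and 62.5 in CR mice and was higher in every CR mouse (log2 fold change 0.37, standard error 0.11, adjusted p = 0.0508 from limma). Its adjusted p exceeded 0.1 without CR mouse 1 or Con mouse 3 and with the libraries of day 25 alone. The integrated stress response, which slows translation and induces ATF4, had a median of 0.11 [0.079 to 0.20] over 19 genes, with 1 that rose and 1 that fell. The member that rose was *Ddit4*, counted above with the glucocorticoid response. *Atf4* itself had FPKM of 59.2, 59.8 and 42.5 in Con mice and 48.98, 59.2 and 50.97 in CR mice, and the groups overlapped. *Atf5*, a related factor that ATF4 and stress induce, had FPKM of 132, 125 and 185 in Con mice and 49.6, 61.7 and 70.1 in CR mice. The CR mice were far lower (log2 fold change -1.26, standard error 0.22, adjusted p = 0.0057 from limma). In the endoplasmic reticulum list (median -0.055 [-0.099 to 0.0064] over 29, 1 [1 to 2] higher and 3 [1 to 2] lower at an adjusted p under 0.1 from limma), *Herpud1*, a part of the machinery that removes misfolded proteins, had FPKM of 150.1, 220.3 and 231 in Con mice and 377, 369 and 385 in CR mice. Con mouse 1 was lowest, and the CR mice were alike and higher (log2 fold change 0.93, standard error 0.15, adjusted p = 0.00382 from limma). Lower in each CR mouse were *Pdia4*, a disulfide isomerase, with FPKM of 59.1, 53.6 and 58.6 in Con mice and 42.6, 41.1 and 39.3 in CR mice (log2 fold change -0.47, standard error 0.11, adjusted p = 0.0235 from limma), and *Calr*, which encodes calreticulin, with 304, 245 and 305 in Con mice and 196, 228 and 195 in CR mice (log2 fold change -0.46, standard error 0.16, adjusted p = 0.0988 from limma). For *Calr* the adjusted p exceeded 0.1 in 5 of the 6 fits with 1 mouse left out, without the filter on low FPKM, with median-ratio scaling and with the replicate block.

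Chaperones of the heat shock response had a median of 0.13 [0.083 to 0.15] over 22 genes. *Hspa1b*, the inducible HSP70, has a near-identical copy and had FPKM of 0.406, 0.523 and 0.402 in Con mice and 2.05, 1.13 and 2.37 in CR mice. *Dnaja1*, a partner of HSP70, had FPKM of 14.4, 15.3 and 14.96 in Con mice and 23.8, 18.5 and 24.1 in CR mice. Both were higher in each CR mouse (*Hspa1b* log2 fold change 0.96, standard error 0.20, adjusted p = 0.0115 from limma; *Dnaja1* log2 fold change 0.53, standard error 0.11, adjusted p = 0.0109 from limma). Genes of autophagy and lysosomes and of mTORC1 had medians of -0.0081 [-0.042 to 0.044] over 42 and -0.036 [-0.067 to 0.0012] over 26 genes, and both changed sign with median-ratio scaling. Of the mTORC1 genes 1 rose, which was *Ddit4*, given above.

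Nitric oxide, the subject of the study, is made from arginine by nitric oxide synthases with tetrahydrobiopterin as a cofactor. The inducible enzyme *Nos2* was listed at 0 in all 6 mice, and the neuronal *Nos1* rested on at most 1 read per library. The endothelial *Nos3* had FPKM of 0.438, 0.811 and 0.695 in Con mice and 0.576, 0.729 and 0.862 in CR mice, from 33 to 71 reads, under the minimum for the test. These groups overlapped. *Gch1*, the first step of cofactor synthesis, had FPKM of 52.3, 71.1 and 54.6 in Con mice and 55.5, 66.4 and 67.6 in CR mice, with overlapping groups. *Nostrin*, an adaptor that draws the endothelial enzyme away from the membrane, had FPKM of 8.53, 9.7 and 8.99 in Con mice and 6.36, 6.46 and 6.23 in CR mice. Both groups were tight, with the CR mice lower by less than the minimum fold (log2 fold change -0.45, standard error 0.09, adjusted p = 0.00765 from limma). Over 20 tested genes of this list, the median was 0.10 [0.057 to 0.14]. None passed both thresholds in limma or with voom, and 1 was higher and 2 were lower at an unadjusted p under 0.05.

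*Tsku* encodes tsukushi, a secreted protein of hepatocytes that responds to energy use and thyroid hormone. FPKM were 34.9, 46.1 and 49.6 in Con mice and 101, 104 and 82.7 in CR mice. All CR mice were higher (log2 fold change 1.13, standard error 0.23, adjusted p = 0.0116 from limma). The log2 fold change was 0.98 without Con mouse 1. *Lect2*, a hepatokine that rises with overfeeding, had FPKM of 45.1, 38.8 and 41.5 in Con mice and 84.3, 102 and 64.4 in CR mice. Its groups did not overlap (log2 fold change 0.96, standard error 0.17, adjusted p = 0.0052 from limma). Of 26 hepatokine genes 2 rose [1 to 2], *Tsku* and *Igfbp1*, and the median was 0.04 [0.02 to 0.084], or 0.0014 with quantile normalization. In the iron list (median -0.11 [-0.14 to -0.058] over 20, 1 that rose [0 to 1], 3 [0 to 2] higher and 3 lower at an adjusted p under 0.1 from limma), *Steap3*, a reductase of iron in endosomes, had FPKM of 8.97, 8.02 and 7.69 in Con mice and 3.62, 4.85 and 4.02 in CR mice. It was lower in each CR mouse (log2 fold change -0.84, standard error 0.11, adjusted p = 0.00125 from limma). The hepcidin genes *Hamp2*, with FPKM of 34.2, 31.6 and 26.2 in Con mice and 113, 60.3 and 74.2 in CR mice (log2 fold change 1.36, standard error 0.41, adjusted p = 0.0583 from limma), and *Hamp*, with 2383, 1293 and 1601 in Con mice and 2448, 3588 and 2467 in CR mice (log2 fold change 0.71, standard error 0.25, adjusted p = 0.0925 from limma), were higher in each CR mouse. For both the adjusted p exceeded 0.1 in 5 of the 6 fits with 1 mouse left out and without the filter on low FPKM, and for *Hamp* also with TPM, with the replicate block and with the libraries of day 25 alone. *Nampt*, the enzyme that sets the rate of NAD recovery and follows the clock, had FPKM of 16.2, 17.9 and 16.9 in Con mice and 34.7, 31.6 and 33.3 in CR mice. All CR mice were higher, with little spread (log2 fold change 0.93, standard error 0.16, adjusted p = 0.00459 from limma). *Kynu*, a step of NAD synthesis from tryptophan, had FPKM of 54.6, 52.6 and 59.9 in Con mice and 31.7, 31.2 and 42.5 in CR mice. Its CR mice were all lower (log2 fold change -0.66, standard error 0.13, adjusted p = 0.0109 from limma). Over 25 genes of NAD metabolism and sirtuins the median was 0.10 [0.05 to 0.13].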

How the data were processed

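RNA of 12 mouse livers was sequenced by the authors as paired-end reads on a single lane. The authors deposited FPKM values (mm10), made with HOMER from exonic reads with 1 transcript per gene. The deposited exon lengths are in bases. The header does not say whether strand was used. Low FPKM come in steps of 1 read, which gave back depth and read numbers.

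Values were analysed as log2(FPKM + 1) for the 10593 genes that reached an FPKM of 1 in 3 or more of 12 libraries. Limma 3.58.1 in R 4.3.3, with 1 model of the 4 groups and a trend on expression, gave CR against Con at day 25 and its difference from day 30, with Benjamini-Hochberg adjustment over all genes and 2-sided tests. With 3 mice a group, an exact permutation test of 1 gene cannot go below 0.1. Tables were made with pandas 2.3.3 and numpy 2.4.6 under Python 3.11.15, and figures with matplotlib 3.10.9. Promoters and miRNAs are from RefSeq tables (GRCm38.p6) and were matched by symbol.

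The comparison and the gene lists, written from general knowledge, were chosen with earlier results of these data known. Named genes were the 12 highest and 12 lowest log2 fold changes among protein-coding genes past both thresholds whose groups did not overlap, the leading members of each list (up to 5 past both thresholds and, where fewer than 3 passed, up to 3 further ones with an adjusted p under 0.1), and members marked in the lists as anchors. A remark marks every other gene as named once its values had been seen. Not all genes or items under the rule are reported here.

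Day 25 columns were matched to samples by their descriptions. The descriptions of the day 30 control samples are all alike, so the 3 control columns left over were placed in that group by elimination and carry no replicate number there. They enter the model of 4 groups and the difference from day 30. The replicate numbers of day 25 come from the sample titles. The titles do not say that same-numbered mice form pairs or a batch. At day 25, deviations of same-numbered mice from their group means had correlations of 0.106 to 0.368 over 3 pairs. The other 6 combinations had correlations of -0.287 to 0.0134. Deviations cancel out within each group, so positive correlations in some pairs lower the others, and these values cannot show a pairing. The main fit did not use the number. A block for this number, planned beforehand, gave 93 genes that rose and 71 that fell, with all 157 genes among them. The block covered the day 25 libraries only. The other alternatives were the pseudocount, the filter on low FPKM, the scaling between libraries, the libraries in the model, the moderation, the thresholds, voom on recovered reads and leaving out each mouse. Proteomic and physiological data were not used here.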

Additional observations from a re-analysis of the deposited data

Results flagged for a closer look

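The effect of CR at day 25 was tested against that at day 30. Of 10593 genes, 1 had an adjusted p under 0.1 for this difference in limma, and 366 had an unadjusted p under 0.05. It was *Snord55*, a small nucleolar RNA on the minus strand of chromosome 4 (117155771 to 117155848), whose CR effect at day 30 minus that at day 25 was -1.68 on the log2 scale (adjusted p = 0.0833 from limma). At day 25 it was listed at 0 in the Con mice and had FPKM of 1.23, 1.65 and 1.29 in CR mice. Each of these rests on 2 reads, so no fold is given for day 25, and the difference above rests on these few reads too. *Snord55* was named after its values were seen.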

How the results depend on the processing

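Most alternatives kept the counts of genes that rose (89) and fell (68) within 1.5 times. With each mouse left out in turn, 71 to 93 genes rose and 59 to 78 fell. The exceptions were voom on the recovered reads (134 rose and 168 fell), a pseudocount of 0.1 (150 fell), TPM (110 fell) and no minimum fold change (593 higher and 989 lower). The cause was not tested, except that the last setting removes a threshold. Of the 157 genes, 88 passed both thresholds in every fit with 1 mouse left out and 148 with voom. Medians of some lists also moved by over 1.5 times with another scaling between libraries. With median-ratio scaling they were -0.0081 for the endoplasmic reticulum list, -0.041 for the growth hormone axis, -0.085 for the proteasome and 0.060 for translation factors.

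Of the 88 genes given with a test or, for *Mir24-1*, with reads, 45 passed both thresholds, of which 31 passed them in every fit with 1 mouse left out and 43 under every scaling. None changed direction under any alternative, 81 kept an adjusted p under 0.1 in every fit with 1 mouse left out, and 86 kept it under every scaling. The fit with a replicate block, in which 93 genes rose and 71 fell, ended no call past both thresholds. In it 86 of the 88 genes kept an adjusted p under 0.1, all but *Calr* and *Hamp*. Depth between 15749631 and 21198518 reads limits genes with low FPKM, and 3 mice per group limit all tests.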

Other observations

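A locus on chromosome 13 holds a host gene and a cluster of microRNAs inside it. The host gene *2010111I01Rik* (63240029 to 63302877, plus strand), an aminopeptidase gene, had FPKM of 5.98, 9.63 and 9.49 in Con mice and 13.4, 17.4 and 16.3 in CR mice. All CR mice were above all Con mice (log2 fold change 0.85, standard error 0.16, adjusted p = 0.00714 from limma). *Mir24-1* lies near its end on the same strand (63301208 to 63301275) and had FPKM of 0, 0.812 and 0.886 in Con mice and 2.82, 6.63 and 4.45 in CR mice. These values rest on 0, 1 and 1 reads in Con mice and 4, 7 and 6 reads in CR mice, so no fold is given. *Mir3074-1*, on the opposite strand of the same bases, had 3, 1 and 3 reads in Con mice and 7, 11 and 13 reads in CR mice. *Mir27b*, also inside the host, had 1, 1 and 2 reads in Con mice and 4, 4 and 5 reads in CR mice. *Mir23b* had 1, 0 and 0 reads in Con mice and 1, 2 and 4 reads in CR mice, and its groups overlapped. All 5 genes were named after their values were seen. Reads of the host transcript, of the precursor and of the opposite strand cannot be told apart, and mature microRNAs were not measured by these libraries. The mature arms of *Mir24-1* are shown because they define what this locus could silence, with the seed (bases 2 to 8) in capitals.
miR-24-1-5p: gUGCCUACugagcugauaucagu
miR-24-3p: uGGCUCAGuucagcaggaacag

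Other lists were measured as well. Genes of hepatocytes around the central vein had a median log2 fold change of 0.25 [0.16 to 0.32] over 22 genes, of which 2 rose [1 to 3], and those around the portal vein one of -0.029 [-0.13 to 0.068] over 22, of which 1 rose [1 to 2] and 1 fell [0 to 2]. Square brackets give the lowest and highest value with each mouse left out, as in the report. The medians were 0.42 for 6 genes of serine synthesis and the amino acid response, 0.027 [-0.088 to 0.16] for 9 genes of the pentose phosphate pathway, 0.0012 [-0.056 to 0.14] for 14 apolipoprotein genes and 0.057 [-0.028 to 0.14] for 13 transporters of bile acids and sterols. The signs for periportal genes, apolipoproteins and these transporters changed with at least 1 other scaling.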
